A study of Homo sapiens with 6 samples.

Results

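CPA4, CPZ, CPD, CPM, CPE, CPA1 and CPA5 encode metallocarboxypeptidases, enzymes that use a zinc ion to remove single residues from the carboxyl end of peptides and proteins. They are 7 of the 19432 genes with a probe and have 12 of the 29377 probes of the arrays, each found by a single platform gene symbol equal to the current or an earlier name of the gene. The family was selected on log2 differences between LAP2β and mock cells already seen on these same arrays, so every difference given for its genes is a description and carries no test. RNA came from SNU638, a human gastric cancer cell line. The LAP2β group was 3 samples of stable cells that took a LAP2β construct under the CMV promoter together with a neomycin plasmid and were selected with G418, and the mock group was 3 samples of cells that took an empty vector and were established at the same time. Both were grown in RPMI1640 with fetal bovine serum. LAP2β is an inner nuclear membrane form of the TMPO gene product, and the arrays address which transcripts differ between these LAP2β cells and mock cells. An effect of LAP2β cannot be told apart from any other difference between the selected LAP2β cells and the mock cells, such as one between clones. The sources do not say which clone was arrayed, nor whether the 3 samples of a group were separate cultures, so errors and p-values measure no more than how these samples vary, which can be purely technical.

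Metallocarboxypeptidases of this family fall into branches with different preferences. The A/B branch, here CPA1, CPA4 and CPA5, takes off hydrophobic or aromatic residues (CPA-type) and its members are made as inactive secreted precursors. The N/E branch, here CPD, CPE, CPM and CPZ, takes off the basic residues lysine and arginine, acts in the secretory pathway or at the cell surface, and trims peptide hormones and growth factors. CPA4 was first described as a transcript induced by histone deacetylase inhibitors in prostate cancer cells. LAP2β is known to bind the histone deacetylase HDAC3. Whether HDAC3 has a part in the CPA4 signal here was not tested.

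Signals of the 6 Illumina arrays had medians of 189.5 to 195.8 in LAP2β cells and 192.2 to 199.9 in mock cells before normalization. They were quantile normalized and given as log2 signal, so that a difference of 1 is a doubling. A probe was called above background on an array when its detection p-value was under 0.01. The 13323 probes above background on at least 3 of the 6 arrays, which represent 9905 genes, were fitted with limma, and a gene was read from its brightest such probe. The number of arrays limits the precision of every value. Of the 7 genes, CPA4, CPZ, CPD and CPM had such a probe, 5 probes in all, and CPA1, CPA5 and CPE had none. The TMPO probe above background, annotated to a transcript other than the β one, had log2 signals of 9.62, 9.86 and 9.79 in LAP2β cells and 9.61, 9.74 and 10.02 in mock cells, so this probe did not separate the groups. Of 2 further TMPO probes, 1 for the β transcript read 153, 151 and 168 in LAP2β cells and 158, 147 and 161 in mock cells, and the other read 204, 171 and 178 in LAP2β cells and 143, 184 and 163 in mock cells, both above background on no array. These probes therefore do not check the labels, and whether the construct holds their targets is not given in the sources used here. The study measured the overexpression itself by western blotting and real-time PCR, which were not analysed here. Of 11 gastric epithelial markers with a probe, 7 were above background (EPCAM, CDH1, MUC1 and 4 keratins), whereas CLDN18, TFF1, TFF2 and GKN1 were not. The summed signal of the 11 markers was 71757 to 75307 in LAP2β cells and 64900 to 68761 in mock cells. Its part in the results below was not tested. Of the 7 markers above background, 0 passed the limma test, against 1.79% of all 9905 genes.

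CPA4, a secreted carboxypeptidase of the A/B branch, was higher in LAP2β cells than in mock cells. Its signal was 692, 837 and 878 on the LAP2β arrays and 296, 306 and 275 on the mock arrays, and all 6 arrays lay above background. Every LAP2β array was thus brighter than every mock array, and the gap between the groups was much wider than the spread within either. On the log2 scale CPA4 averaged 9.64 ± 0.18 in LAP2β cells and 8.19 ± 0.0789 in mock cells (SD, n = 3 each), a difference of 1.45 (standard error 0.11, as throughout from the limma fit, which shares the spread of all probes) or 2.73-fold. Before normalization the signals were 641, 793 and 843 in LAP2β cells and 301, 335 and 272 in mock cells, with the same separation. Within LAP2β cells replicate 1 was the lowest and replicate 3 the highest. Between arrays with the same replicate number the differences were 1.22, 1.45 and 1.67. By size of the log2 difference CPA4 ranked 14 of the 9905 genes from the top. In RNA of a whole culture, more cells that express a gene and more transcript in each cell cannot be told apart. After background correction and normalization by neqc, a limma routine for bead arrays, the log2 difference of CPA4 was 2.05, and the lowest over the settings tried was 1.32, without normalization between arrays.

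**Figure D1:**
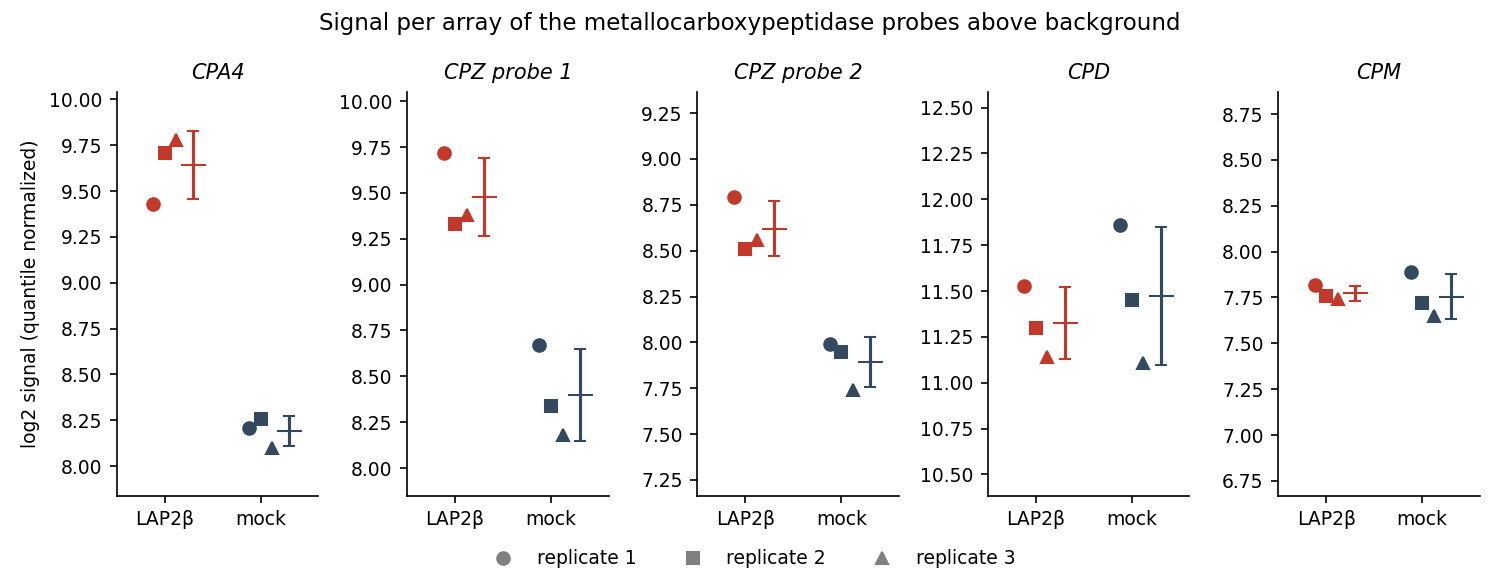
Log2 signal (y axis, quantile normalized) of the 5 metallocarboxypeptidase probes above background, in LAP2β cells (left of each panel) and mock cells (right). Points are single arrays with the replicate number as their shape, bars are the mean ± SD of 3 arrays, and all panels span the same number of log2 units. The groups are apart for CPA4 and both CPZ probes and overlap for CPD and CPM.

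CPA4 lies on the long arm of chromosome 7 next to other carboxypeptidase genes, with CPA5 and CPA1 following it in that order in the RefSeq annotation. The bases upstream of the start of CPA4 and of CPA1, the digestive carboxypeptidase of the pancreas, are shown because CPA4 was measured in these cells and its neighbour was not above background, and they come from RefSeq on GRCh38.p14, where 5 of the 7 genes had an entry. They are the 250 bases before the start on the plus strand, at chr7:130292911-130293160 for CPA4 and chr7:130380244-130380493 for CPA1. Capitals mark the letters TGANTCA, the usual binding motif of AP-1 factors, and the TATA box letters TATAAA, each searched on both strands.
CPA4: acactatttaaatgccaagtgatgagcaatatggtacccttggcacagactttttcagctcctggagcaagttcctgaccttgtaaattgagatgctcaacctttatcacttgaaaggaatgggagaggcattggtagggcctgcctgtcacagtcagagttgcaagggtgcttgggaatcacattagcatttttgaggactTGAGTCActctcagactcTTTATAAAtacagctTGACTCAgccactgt
CPA1: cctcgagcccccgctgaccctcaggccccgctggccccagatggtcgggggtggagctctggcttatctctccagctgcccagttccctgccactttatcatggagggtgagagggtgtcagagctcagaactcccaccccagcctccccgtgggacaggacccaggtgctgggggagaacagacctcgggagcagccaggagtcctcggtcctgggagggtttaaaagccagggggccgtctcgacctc
The CPA4 window held TGANTCA 2 times, as TGAGTCA and TGACTCA, which began 48 and 15 bases before the start. Between them lay TATAAA, which began 28 bases before the start and overlaps its match on the other strand. Of all 35116 promoter windows of the same length, 6.57% held TGANTCA at least 1 time, 0.402% held it 2 or more times, and 10.7% held TATAAA. The CPA1 window held neither set of letters. These matches describe the sequence alone.

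CPA1 and CPA5, which lie beside CPA4, were not above background. The CPA1 probe read 115, 119 and 103 in LAP2β cells and 108, 123 and 118 in mock cells, and was called on 0 of the 6 arrays. CPA5, another A/B enzyme, read 194, 161 and 177 in LAP2β cells and 197, 150 and 156 in mock cells, also with 0 arrays above background. In both cases the groups overlapped, and no fold is given for signals at background. Of 11 genes with a probe from the surrounding stretch of 7q32, 8 were above background, and 0 of these 8 passed the limma test, while 3 had an unadjusted p under 0.05. In the same fit 1.79% of all 9905 genes passed, and 13.8% had an unadjusted p under 0.05. The median log2 difference of the 8 genes was 0.21 against a median of -0.008 over all probes fitted, and 6 of the 8 lay above 0. UBE2H, a ubiquitin-conjugating enzyme, had log2 signals of 9.53, 9.44 and 9.32 in LAP2β cells and 9.07, 9.07 and 9.06 in mock cells. These did not overlap, as for 19.8% of all genes (9.27% higher, 10.5% lower). The log2 difference of UBE2H was 0.37 (adjusted p = 0.0788 from limma). The gene passed when the fit paired arrays by replicate number (adjusted p = 0.0199), where 6.43% of all genes passed. Its other probe had 0.16 (adjusted p = 0.563). ZC3HC1, a nuclear protein, had a log2 difference of 0.28 (adjusted p = 0.221) and MKLN1, muskelin, 0.26 (adjusted p = 0.243), both without overlap. MEST, the imprinted gene of this region, had -0.0304 (adjusted p = 0.952).

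CPZ, a secreted enzyme of the N/E branch that carries a Wnt-binding frizzled-like domain and sits in the extracellular matrix, was also higher in LAP2β cells. Its brightest probe read 845, 645 and 666 on the LAP2β arrays and 407, 325 and 289 on the mock arrays. The lowest LAP2β array lay above the highest mock array. The mean log2 signal was 9.48 ± 0.21 in LAP2β cells and 8.40 ± 0.25 in mock cells (SD, n = 3 each), a difference of 1.08 (standard error 0.14) or 2.12-fold, which ranked 31 of 9905 genes. Between arrays of the same number the differences were 1.05, 0.99 and 1.20, closer together than those of CPA4. A second probe annotated to the same transcript read 442, 365 and 376 in LAP2β cells and 254, 247 and 213 in mock cells. It ran the same way without overlap, with a log2 difference of 0.73 (standard error 0.11) or 1.65-fold, and was above background on all 3 LAP2β and on 2 of the 3 mock arrays. The third CPZ probe, annotated to another transcript, read 131 to 147 in LAP2β cells and 144 to 158 in mock cells and was above background on no array. The 2 probes that gave a signal therefore shared a direction, and the 1 that did not gives no information on its transcript. After neqc the log2 difference of the brightest CPZ probe was 1.51.

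CPD, a membrane-bound enzyme of the trans-Golgi network that trims proteins after furin has cut them, was bright and did not separate the groups. Its signal was 2966, 2514 and 2254 in LAP2β cells and 3723, 2798 and 2204 in mock cells. The mock arrays enclosed all LAP2β arrays. The mean log2 signal was 11.32 ± 0.20 in LAP2β cells and 11.47 ± 0.38 in mock cells (SD, n = 3 each), a difference of -0.15 (standard error 0.17). In both groups replicate 1 was the highest and replicate 3 the lowest, and between arrays of the same number the differences were -0.33, -0.15 and 0.0324. Before normalization CPD read 2728, 2334 and 2187 in LAP2β cells and 3784, 3225 and 2223 in mock cells, where the groups also overlapped. Without mock replicate 1 the log2 difference was 0.0446, the other sign.

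CPM, an enzyme anchored to the cell surface by a lipid that removes basic residues from circulating and local peptides, was close to background. Its brightest probe read 225, 217 and 214 in LAP2β cells and 236, 211 and 201 in mock cells, and was above background on 1 LAP2β and 2 mock arrays. The groups overlapped, with a log2 difference of 0.0205 (standard error 0.09), whose sign turned under median scaling (-0.00369) and without normalization (-0.0189). The other 3 CPM probes, one of them annotated to the same transcript, read 130 to 200 in LAP2β cells and 130 to 184 in mock cells and were above background on no array, so no fold is given although the groups of 1 of them did not overlap. CPE, the enzyme that finishes peptide hormones in endocrine cells, read 114, 142 and 145 in LAP2β cells and 124, 110 and 122 in mock cells, above background on 0 of 6 arrays and with overlapping groups.

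**Figure D2:**
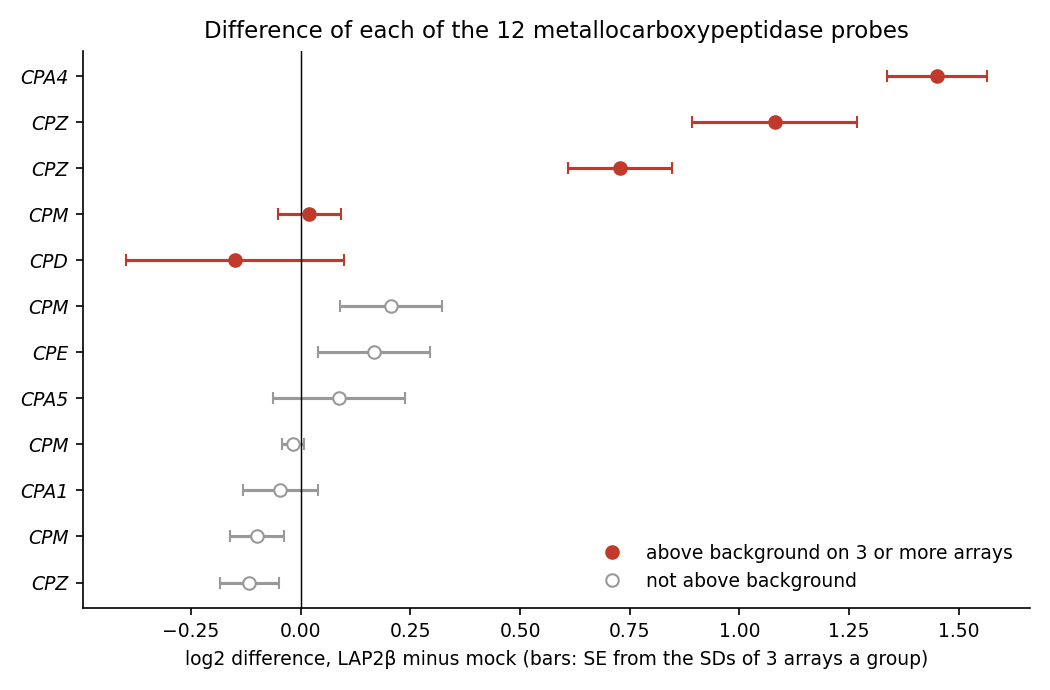
Log2 difference, LAP2β minus mock (x axis), of each of the 12 probes of the 7 genes, with bars for the standard error from the SDs of 3 arrays in each group, without limma's sharing of spread. Filled points were above background on at least 3 arrays, open points were not; CPA4 at 1.45 and the 2 CPZ probes at 1.08 and 0.73 stand to the right of all others.

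Of the 4 genes above background, 2 passed limma's threshold of an adjusted p under 0.05, CPA4 and CPZ, both higher, and 2 did not. Over all 9905 genes 1.79% passed, 1.17% as higher and 0.616% as lower, and since the genes were picked with this contrast known nothing is read from the count. The groups did not overlap for CPA4 and CPZ, both higher, against 19.8% of all genes, with 9.27% higher and 10.5% lower. CPD ranked 1637 from the lowest of the 9905 differences and CPM 4191 from the highest, and neither stood beyond the spread of its arrays.

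**Figure D3:**
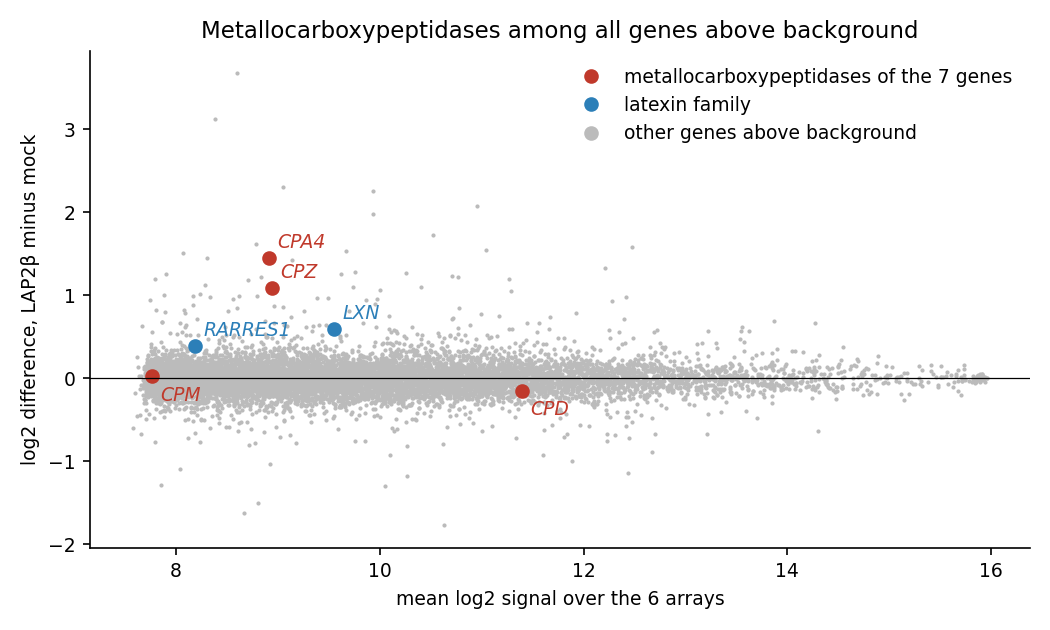
Log2 difference, LAP2β minus mock (y axis), against the mean log2 signal over the 6 arrays (x axis) for the brightest probe of each of the 9905 genes above background (grey). CPA4 and CPZ (red) lie at 1.45 and 1.08 among dim to middling signals, CPD and CPM near 0, and LXN and RARRES1 (blue), of the latexin family, at 0.59 and 0.39.

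CPA4 and CPZ differed in how they varied from array to array. Across all 6 arrays Pearson's r between their log2 signals was 0.911, a value that ranked 202 among 9904 genes and that includes the difference both genes had between the groups. After each array was set against its group mean, r was -0.41. LAP2β replicate 1 was the lowest LAP2β array for CPA4 and the highest for CPZ. CPD and CPM had r of -0.316 and 0.124 with CPA4. The genes with the highest r to CPA4 were RIN2, a Ras and Rab interactor, at 0.996, CAB39, a scaffold of the LKB1 kinase complex, at 0.994, LPAR1, a lysophosphatidic acid receptor, at 0.992, SPINK6, a kallikrein inhibitor, at 0.992, and SUPT4H1, a transcription elongation factor, at 0.992. Against group means the r of these genes was 0.81, 0.73, 0.72, 0.59 and 0.56. LPAR1 and SPINK6 were above background on no mock array, so their mock values are background. These correlations rest on 6 arrays of 2 groups that share the chip type and the normalization, and are descriptions.

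Proteins that bind carboxypeptidases were described from a list of 3 genes, all above background. Of the 3, 1 passed the limma test, against 1.79% of all genes. LXN, latexin, is the natural inhibitor of the A/B branch and is known to bind CPA4. Its signal was 1118, 777 and 902 in LAP2β cells and 656, 609 and 574 in mock cells. The groups did not overlap, as for 19.8% of all genes (9.27% higher, 10.5% lower), and LAP2β replicate 1 was the highest. LXN rose 1.51-fold, with a mean log2 signal of 9.85 ± 0.26 in LAP2β cells and 9.26 ± 0.10 in mock cells (SD, n = 3 each, log2 difference 0.59, standard error 0.13, adjusted p = 0.0469 from limma). RARRES1, a membrane protein related to latexin in sequence, read 393, 313 and 300 in LAP2β cells and 292, 228 and 248 in mock cells, without overlap. Its log2 difference was 0.39 (standard error 0.13, adjusted p = 0.191 from limma), and it passed in the paired fit (adjusted p = 0.0146), where 6.43% of all genes passed. Its other probe had 0.25 (adjusted p = 0.620). CPN2, the carrier subunit of the plasma enzyme carboxypeptidase N, had a log2 difference of -0.22 (adjusted p = 0.373), also without overlap. The call of LXN was narrow. It was lost without LAP2β replicate 1 (adjusted p = 0.110), LAP2β replicate 3 (0.132), mock replicate 2 (0.216) or mock replicate 3 (0.135), and with the authors' normalized table (0.0518), while its log2 difference stayed between 0.44 and 0.72 in all 20 settings tried.

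Most other enzymes of the family were not above background. Of 14 further metallocarboxypeptidase genes with a probe, 3 were above it, among them neither CPA3 of mast cells nor CPB1 of the pancreas. Of the 3, 0 passed the limma test, against 1.79% of all genes, and 1 had an unadjusted p under 0.05, against 13.8%. AGTPBP1, which trims glutamate from tubulin tails, had log2 signals of 8.71, 8.60 and 8.93 in LAP2β cells and 8.94, 9.16 and 9.10 in mock cells. The groups did not overlap, as for 19.8% of all genes (9.27% higher, 10.5% lower), and the difference was -0.32 (adjusted p = 0.202). CPXM1, a family member without catalytic activity, had -0.22 (adjusted p = 0.464) and AGBL5, another tubulin enzyme, -0.11 (adjusted p = 0.749), and a second AGBL5 probe had 0.0257 (adjusted p = 0.961). Among 12 carboxypeptidases of other families with a probe, 6 were above background. Of the 6, 0 passed (1.79% of all genes), with 1 at an unadjusted p under 0.05 (13.8% of all genes). The median log2 difference of the 6 was 0.0487. CTSA, the lysosomal protective protein, read 2025, 1834 and 1719 in LAP2β cells and 1471, 1360 and 1425 in mock cells without overlap. Its log2 difference was 0.39 (adjusted p = 0.0761), and it passed in the paired fit (adjusted p = 0.0149), where 6.43% of all genes passed. CTSZ, a lysosomal cysteine carboxypeptidase, had 0.23 (adjusted p = 0.438) and CPQ, a secreted peptidase, -0.0923 (adjusted p = 0.749).

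The enzymes that work beside CPD, CPE and CPM in the maturation of peptides did not pass the test. Of 11 genes of proprotein convertases and peptide processing with a probe, 8 were above background. Of the 8, 0 passed the limma test, against 1.79% of all genes, and 1 had an unadjusted p under 0.05, against 13.8%. Their log2 differences ran from -0.28 to 0.16. PCSK5, a convertase of growth factor precursors, had -0.28 (adjusted p = 0.219) without overlap of the groups, as for 19.8% of all genes. QPCTL, a glutaminyl cyclase of the Golgi, had 0.16 (adjusted p = 0.504) and PCSK7 -0.15 (adjusted p = 0.599), both with overlap. FURIN, the convertase that acts before CPD, had -0.12 (adjusted p = 0.615). Of 26 granin and peptide precursor genes, 22 were not above background, among them CHGA, GAST and SST. ADM, the precursor of the vasodilator adrenomedullin, was the only one of the 4 others to pass the test that 1.79% of all genes passed. It read 17777, 13461 and 13733 in LAP2β cells and 9719, 8913 and 10649 in mock cells, so that all LAP2β arrays were brighter. ADM rose 1.53-fold (log2 difference 0.61, standard error 0.12, adjusted p = 0.0311 from limma). The call was lost without LAP2β replicate 1 (adjusted p = 0.0729), 2 (0.0573) or 3 (0.0618) or mock replicate 2 (0.198), and after neqc (0.109). NMU, neuromedin U, had a log2 difference of -0.33 (adjusted p = 0.152, and 0.0450 in the paired fit, where 6.43% of all genes passed). NMB, neuromedin B, had -0.28 (adjusted p = 0.195). For both genes all LAP2β arrays lay below all mock arrays.

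**Figure D4:**
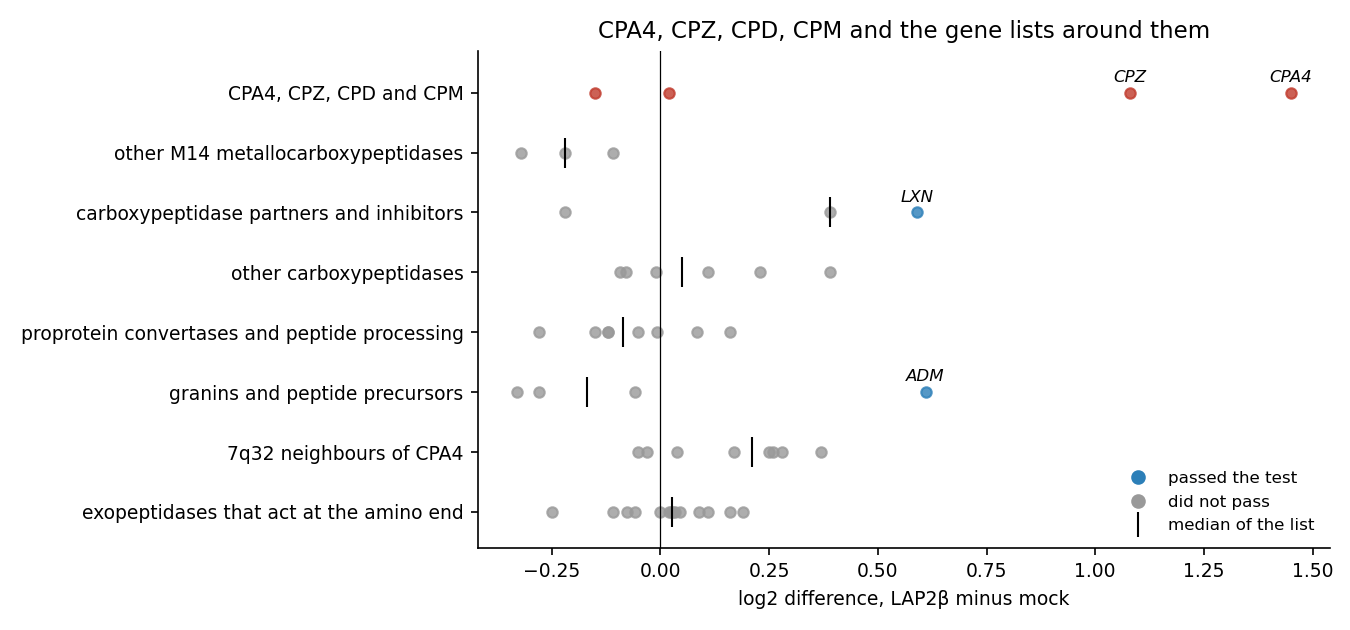
Log2 difference, LAP2β minus mock (x axis), of each gene above background, for CPA4, CPZ, CPD and CPM (red, no test) and for each surrounding gene list (blue where the gene passed the limma test, grey where it did not). Upright marks are list medians; LXN at 0.59 and ADM at 0.61 are the 2 genes of the lists that passed.

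Most markers of cells known for carboxypeptidases were not above background. Of 7 pancreatic acinar markers 6 were above background on 0 of the 6 arrays and CEL alone was measured. The signal summed over all 7 was 1061 to 1124 in LAP2β cells and 1053 to 1073 in mock cells. Of 5 mast cell markers with a probe 0 were above background, with sums of 740 to 808 in LAP2β cells and 760 to 788 in mock cells. Of 5 neuroendocrine markers 1, INSM1, was above background, and of 11 fibroblast, endothelial and leukocyte markers 0 were.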

How the data were processed

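RNA of 3 LAP2β and 3 mock samples of SNU638 cells was measured, with 1 array per sample. The authors hybridized it to Illumina Human HT-12 BeadChips, processed the scans with BeadStudio and applied quantile normalization. They deposited intensity values before and after normalization, both linear although the methods name a log2 step, and detection p-values from BeadStudio. Whether background was subtracted is not given in the sources used here. Across these tables, columns of detection p-values whose name fitted no sample numbered 2 and were left out. This left mock replicate 3 without one, and each of its probes took the median detection p-value found at the same signal rank on the 5 remaining arrays. On those 5 arrays this rule gave the deposited call for 97.99% to 99.8% of the probes.

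The deposited intensity values before normalization were quantile normalized in limma 3.58.1 (R 4.3.3), log2 transformed and, for the 13323 probes kept, fitted with lmFit and eBayes, LAP2β minus mock, with Benjamini-Hochberg adjustment over all kept probes. The fit was tested on simulated data. Their noise was independent between arrays, so that test did not cover deviations shared by same-numbered arrays. Of 29377 probes 27988 had 1 gene symbol, of which 27819 were updated by gene ID through a RefSeq table of GRCh38.p14, and 1389 had several or none.

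The genes, the lists and the rule for named genes were chosen with earlier results of these data known. Named are all probes of the 7 genes, TMPO, for each list the genes past the threshold (at most 4) filled to 3 by the smallest adjusted p, and the 5 genes with the highest correlation to CPA4. MEST, FURIN, GAST, SST, ANPEP, DPP4 and the marker genes are named besides. No list was given a set test. The latexin family in the plot of all genes is LXN and RARRES1.

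Deviations from the group mean correlated at 0.544, 0.228 and 0.368 between same-numbered LAP2β and mock arrays. Arrays with different numbers gave -0.434 to 0.158, and the highest of these, LAP2β replicate 2 with mock replicate 3, was close to the 0.228 of replicate 2. Deviations of 3 arrays from their mean sum to 0. These values therefore cannot tell pairing by number from arrays numbered 1 that stand apart from the rest. On these values, from the same data, the numbers of the sample titles were taken as pairs in an alternative fit. What a number shares is not stated. The fit with this block is given where it changes a call. Tried besides were the normalized values of the authors, deposited both as a table and as a series matrix, neqc (offset 16), normexp (offset 50), median scaling or no normalization, other detection filters, a trended and robust eBayes, the methods' t-test, the mean over a gene's probes and each array left out. Detection from the 5 arrays with a detection column alone was added after the data had been seen. No slide or scan date was given, so no such block was fitted.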

Additional observations from a re-analysis of the deposited data

How the results depend on the processing

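CPA4 kept its direction in every setting tried, with a log2 difference of 2.05 after neqc and 1.38 to 1.55 when 1 array was left out. CPZ ran from 0.90 to 1.51 over the other settings and 0.96 to 1.22 with 1 array left out. With the methods' t-test 0 of the 4 genes above background passed after adjustment. Before it, at the methods' level, CPA4 and CPZ passed, as did 1616 of the 13323 probes fitted. Both genes were selected on this contrast, so these values describe its size alone. Over all probes 220 passed, 146 of them higher. The number was 537 with median scaling (114 higher), 521 without normalization between arrays (109 higher), 145 after neqc, 821 with the replicate block, 1 with the methods' t-test after adjustment (1616 before it, at the methods' level) and 99 to 279 with 1 array left out, lowest without mock replicate 2. The median log2 difference of all kept probes was -0.13 with median scaling and -0.14 without normalization, so differences in these settings are relative to that shift.

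Of the carboxypeptidase partners and inhibitors 1 gene passed, and 0 passed with the authors' normalized table, the series matrix, detection on all 6 arrays, median scaling, no normalization, neqc, normexp or the methods' t-test, 0 to 1 with 1 array left out, and 2 with the replicate block. Of the granins and peptide precursors 1 passed, 0 after neqc or with the methods' t-test, 0 to 1 with 1 array left out, and 2 with median scaling, no normalization or the replicate block, although ADM itself had adjusted p = 0.0575 with median scaling and 0.0558 without normalization. With the replicate block 1 of the other carboxypeptidases and 1 of the 7q32 neighbours passed, against 0 without it. The block changed no other call of a named gene. The sign turned for genes near 0, CPM (-0.00369 with median scaling, -0.0189 without normalization, and -0.0297 to 0.087 with 1 array left out, below 0 without LAP2β replicate 1 or mock replicate 3), CPD (-0.33 to 0.0446 with 1 array left out, above 0 only without mock replicate 1), AGBL5 (-0.20 to 0.0399 with 1 array left out, above 0 only without mock replicate 1), DPP7 (-0.0108 with median scaling and -0.026 without normalization) and TMPO (-0.12 to 0.082 with 1 array left out, above 0 without LAP2β replicate 1 or mock replicate 3). Signals of CPA1, CPA5, CPE and most CPM probes lay at background, where no difference could be detected.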

Other observations

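Peptidases that act from the other end of the chain did not pass the test. Of 18 exopeptidases of the amino end with a probe, 14 were above background. Of the 14, 0 passed the limma test, against 1.79% of all genes, and 1 had an unadjusted p under 0.05, against 13.8%. Their log2 differences ran from -0.25 to 0.19 with a median of 0.0263. METAP2, which removes the first methionine of new proteins, had log2 signals of 12.27, 12.34 and 12.38 in LAP2β cells and 12.35, 12.72 and 12.67 in mock cells, a difference of -0.25 (adjusted p = 0.352 from limma). DPP7, a lysosomal dipeptidyl peptidase, had 0.16 (adjusted p = 0.528) and DPP3, a cytosolic one, 0.19 (adjusted p = 0.569). ANPEP and DPP4, surface enzymes of many epithelia, were not above background.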
